A study of Zea mays with 112 samples.

Results

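The binding sites of SMH1 (Zm00001d011252) and MYBR98 (Zm00001d036356), both MYB-related transcription factors (TFs) of maize, were compared in the ampDAP-seq lists that carry their names. These lists were 2 of 112 and held 111894 and 12472 sites, together 124366 of 9750022. In ampDAP-seq, a TF fused to a HaloTag is made in wheat germ extract, fixed to beads and mixed with PCR-amplified genomic DNA, which carries no chromatin or methylation, and the recovered fragments are sequenced. All lists used DNA from 14 DAG leaves of the inbred line B73, the labels of the lists differ in the TF coding sequence, and a library with the empty HaloTag vector was the control of the peak caller. There was 1 list per TF with no replicate library, so no difference below could be tested against a spread between replicates. Intervals in brackets are Wilson 95% intervals, which cover counting error only, since neighbouring sites and repeated sequences are not independent.

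MYB-related TFs carry a single MYB repeat. SMH1 takes its name from the single myb histone proteins of maize, which join a MYB domain of the telomere-binding type to a domain like that of linker histone H1 and bind telomeric DNA in vitro. The related TRB proteins of Arabidopsis bind telomere repeats and also short interstitial copies of the telomere sequence, called teloboxes, in promoters. No role of MYBR98 is given here. RefSeq (Zm-B73-REFERENCE-NAM-5.0) lists 1 gene with SMH1 among its synonyms, LOC100274000, which also has the synonym MYBR101. MYBR98 matched no entry.

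The de novo motifs that the study gives for the TFs are shown because they hold a common run, written in capitals, which is the core of the telobox.
SMH1: ccAAACCCTA
MYBR98: caAAACCCTAaa
The last position of the SMH1 motif, A or G, is left out. No genome of the build of the lists (B73 v4) was used here, so the sequence under single sites was not read.

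The SMH1 list was the longer by 8.97 times. It ranked 40th of the 112 lists by number of sites and the MYBR98 list 104th, against a median of 74233. Signal, the strength given by the peak caller, ran from 18 to 2771.6 (median 55.5) in SMH1 and from 13 to 4226.2 (median 41) in MYBR98. Read depth is unknown, so signal was used to rank sites within a list only. At a −log10 q of 10 or more, 65528 SMH1 sites (58.6%) and 5942 MYBR98 sites (47.6%) were left.

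Most sites of the short list lay on sites of the long one. A summit of SMH1 was found within 100 bp of 8286 MYBR98 sites, 66.4% of that list (65.6 to 67.3). In the other direction, 8936 SMH1 sites had a MYBR98 summit within 100 bp, 7.99% of that list (7.83 to 8.15). The pair was chosen by the overlap of its sites, so these shares are given as a description and are not a test. The share of MYBR98 sites with SMH1 was 28.0% within 5 bp, 41.95% within 20 bp, 72.4% within 200 bp and 84.9% within 10 kb. Sharing differed little between chromosomes, from 64.1% of MYBR98 sites on chromosome 6 to 69.3% on chromosome 4. No other list came near this level in MYBR98. The next highest was MYBR33, another MYB-related TF, with a summit at 17.3% of MYBR98 sites, and the median of the other 110 lists was 2.15%.

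Sharing followed the strength of the site. The lists were cut into deciles by signal, decile 1 being the strongest. In decile 1 of MYBR98, 1201 of 1247 sites (96.3%) were shared, and in deciles 2 to 5 the share stayed between 88.3% and 94.6%. It fell to 64.7% in decile 6 and 28.4% in decile 10, where signals ran from 13 to 19. Among the 100 strongest MYBR98 sites 99 were shared, and among the 100 strongest SMH1 sites 76. The share was 48.8% in decile 1 of SMH1, 14.2% in decile 2 and 0.938% in decile 10. Shared MYBR98 sites had a median signal of 74.85 and unshared ones 23, and 89.6% of the unshared sites lay below the median signal of the list. In SMH1 the medians were 384.8 and 50.4. The lists met at their strong ends, while most weak sites of MYBR98 and most sites of SMH1 stood apart.

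**Figure D1:**
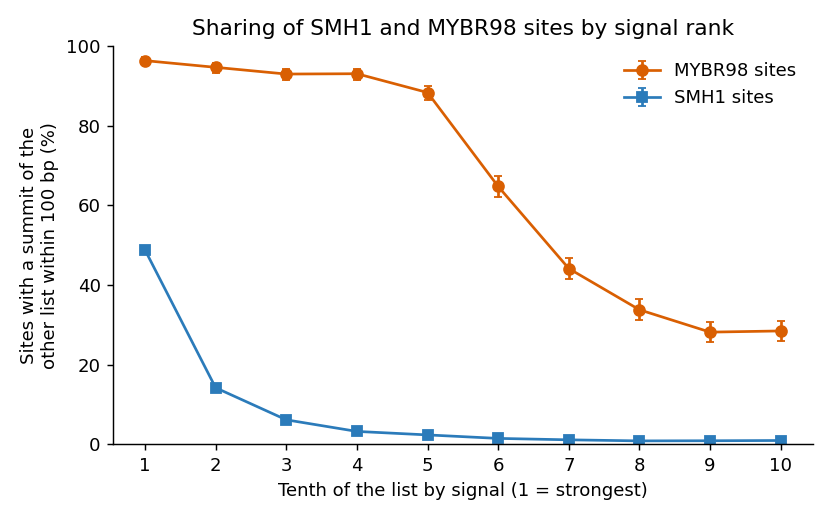
Percentage of sites with a summit of the other list within 100 bp (y axis), by decile of the list ranked by signal (x axis, 1 the strongest), for MYBR98 (circles, 1247 or 1248 sites a decile) and SMH1 (squares, 11189 or 11190 sites a decile), with Wilson 95% intervals. MYBR98 stays at 88.3% or more for 5 deciles and then drops, while SMH1 falls from 48.8% to 14.2% between deciles 1 and 2.

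Within the shared sites, the order of strength agreed only in part. Across the 8286 matched MYBR98 sites the Spearman correlation of the ranks was 0.322, and it was 0.193 among those above the median signal of MYBR98 and 0.132 among those below it. Both lists share the assay and the DNA. The matched SMH1 sites had a median rank of 6375 of 111894. The strongest site of SMH1, chr10:32317401-32317601 with a signal of 2771.6, had no MYBR98 summit within 30.3 kb.

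Loci strong in both lists are exemplified by the 5 whose lower rank of the 2 was best. The first was chr7:82375518-82375718, rank 2 in MYBR98 (signal 3824.2) and rank 7 in SMH1 (signal 1731.1). The second was chr9:108989514-108989714, with ranks 5 and 11. The others were chr1:193919267-193919467 (ranks 4 and 14), chr9:30590434-30590634 (ranks 6 and 15) and chr3:34138899-34139099 (ranks 17 and 19). At these 5 loci the summits of the 2 lists lay 32 to 65 bp apart, and between 3 and 21 other TFs had a summit within 100 bp.

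SMH1 also had strong sites of its own. Besides the site on chromosome 10, the strongest without MYBR98 within 10 kb were chr8:67242541-67242741 (rank 9, signal 1715.6) and chr7:80988868-80989068 (rank 10, signal 1693.4). The nearest MYBR98 summits were 320.4 kb and 97.1 kb away, and no other TF had a summit at either site. MYBR98 had no such sites near the top of its list. All 46 unshared sites in its decile 1 lay just outside the window, with an SMH1 summit 101 to 200 bp away. The strongest MYBR98 site without SMH1 within 10 kb was chr7:44932088-44932288, at rank 4629 with a signal of 69, followed by chr2:41002787-41002987 (rank 4829, signal 64) and chr10:37879979-37880179 (rank 4855, signal 63.5). Between 3 and 14 other TFs had a summit at these 3 sites. Of all 4186 unshared MYBR98 sites, 740 (17.7%) had an SMH1 summit 101 to 200 bp away, and 1883 (45.0%) had none within 10 kb.

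The distance between matched summits took a few fixed values. In 3378 of the 8286 pairs (40.8%) the summits were exactly 3 bp apart, with MYBR98 to the left of SMH1 in 1753 and to the right in 1625. Distances of 1 or 2 bp occurred in 75 pairs, of 4 to 8 bp in 108, and only 2 pairs coincided. The next commonest distances were 25 bp (527 pairs), 19 bp (392), 10 bp (374), 32 bp (267) and 15 bp (184). Together these 6 distances held 61.8% of the pairs. The median distance was 14 bp, and 9.53% of the pairs were over 50 bp apart. Strand is not given in the lists, so left and right refer to the chromosome coordinate.

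**Figure D2:**
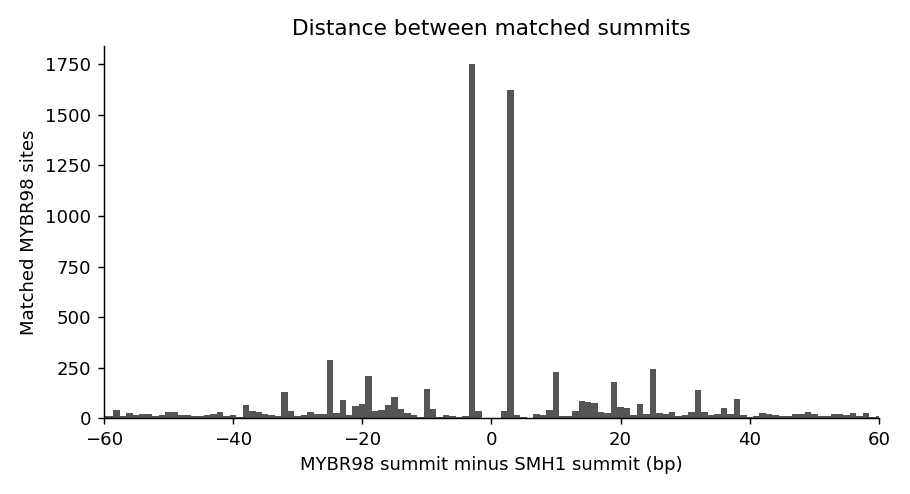
Number of matched MYBR98 sites (y axis) by the signed distance of the MYBR98 summit from the nearest SMH1 summit (x axis, bp, shown to 60 bp on each side). The bars at −3 bp (1753 sites) and +3 bp (1625 sites) exceed all others, the bar at 0 holds 2 sites, and lower bars recur at 10, 19, 25 and 32 bp.

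The 3-bp spacing was commoner at weak sites. It was found in 27.7% of pairs in decile 1 of MYBR98, 45.9% in decile 5 and 50.4% in decile 10, and the median distance was 19 bp in decile 1 and 3 bp in decile 10. The caller places a summit with the help of short words enriched in the same list, so each list has its own anchor point. The part of that step in the spacing was not tested. Among 104 other lists with 100 or more summits near SMH1, the median share at a distance of 3 bp was 0.422% and the highest 8.13%. Their median share at whatever distance was commonest was 6.26%. Some lists also had a prevailing distance, and the 5 highest are named after their values were seen. EREB18, an ethylene response factor, had 44.7% of its 179 pairs at 45 bp, ZmOrphan110 38.1% of 527 at 43 bp, WRKY93 26.8% of 559 at 15 bp, the HD-ZIP factor OCL1 25.5% of 1634 at 58 bp and EREB79 25.4% of 1136 at 39 bp. MYBR13, which had the most summits near SMH1 (6480) among the MYB-related lists other than MYBR98, had 20.4% of them at 12 bp.

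SMH1 sites often came in doublets. Of the gaps between neighbouring SMH1 summits 18.8% lay between 100 and 200 bp, and the commonest values were 128 bp (945 gaps), 147 bp (923), 150 bp (902) and 125 bp (886). In MYBR98 the share was 11.4%, and 128 bp was again the commonest (174 gaps). With SMH1 cut to its 12472 strongest sites, a list of equal length, the share was 7.77%, below that of MYBR98. An SMH1 neighbour at 100 to 200 bp was found at 73% of shared SMH1 sites (72.1 to 73.95) and 31.4% of unshared ones (31.1 to 31.7). Among the 12472 strongest SMH1 sites, with neighbours from the whole list, the values were closer, at 77.3% (76.2 to 78.4) and 61.7% (60.5 to 62.8). A MYBR98 summit lay within 50 bp of 1 member of 5669 of the 21281 doublets and of both members of 1097. Where it marked 1 member, that was the member with the higher SMH1 signal in 95.1% of cases (94.5 to 95.6).

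Arrays, defined as 3 or more summits of a list with neighbours within 1 kb, were commoner in the whole SMH1 list, which is the longer list. They held 27163 SMH1 sites (24.3%) in 8593 arrays and 1095 MYBR98 sites (8.78%) in 348 arrays. The background over the sites of the other 110 lists was 8.68%, and SMH1 was second of 112 lists after EREB209 (24.4%), whereas MYBR98 was 34th. Of the arrays of MYBR98 97.4% held a shared site, and of those of SMH1 41.5%. An array counts here when any 1 of its summits is shared. Of all sites, 66.4% in MYBR98 and 7.99% in SMH1 are shared, and the shares of arrays were not tested against these. Of shared SMH1 sites 64.7% (63.7 to 65.7) lay in an SMH1 array, against 20.8% (20.5 to 21.01) of SMH1 sites alone. Of shared MYBR98 sites 11.6% (10.96 to 12.3) lay in a MYBR98 array, against 3.13% (2.64 to 3.70) of MYBR98 sites alone.

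The difference in SMH1 arrays depended on sites outside the 12472 strongest. Among the 12472 strongest SMH1 sites, 60.4% of shared and 43.1% of unshared ones lay in an array of the whole list. When the other sites were left out before arrays were formed, 0.991% of shared and 0.997% of unshared sites did. Both values were below the 8.78% of MYBR98, a list of equal length, so the higher share of SMH1 did not hold at this length. Lengths between this and the whole list were not tried. The arrays were short, with a median span of 298 bp in SMH1 and 163 bp in MYBR98. The array with the most SMH1 summits held 9 on chromosome 7 from 77723762 to 77726838, with signals of 23.1 to 483.6, and 2 MYBR98 summits lay in it. The next held 8 on chromosome 5 from 136697201 to 136699681, and the third 7 on chromosome 3 from 177088898 to 177090214. That of MYBR98 held 5 summits on chromosome 7 from 76291913 to 76292371, with signals of 98.0 to 1655.3, and 2 SMH1 summits. Arrays of 4 followed on chromosome 9 from 30590350 to 30590593 and on chromosome 10 from 68564675 to 68565201, each with 2 SMH1 summits. The array on chromosome 9 holds 1 of the 5 loci strong in both lists.

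Over longer distances, the strong SMH1 sites and the MYBR98 sites had spacings in common, and the strong SMH1 sites also had another. The median gap between neighbours was 4013 bp in SMH1 and 45882 bp in MYBR98. In MYBR98, 743 gaps (5.98%) were 9.4 to 9.7 kb long, against 80 from 9.1 to 9.4 kb and 51 from 9.7 to 10 kb. Both ends of the gap were shared with SMH1 in 644 of these 743 (86.7%). In the whole SMH1 list the range of 9.4 to 9.7 kb held 824 gaps, against 930 below and 602 above it. An excess there lay slightly lower, with 466 gaps from 9300 to 9400 bp and 367 from 9400 to 9500 bp. From 9100 to 9200 bp there were 179, and from 9600 to 9700 bp 207. The range of 9.4 to 9.7 kb stood out among the 12472 strongest SMH1 sites, with 956 gaps (7.71%) against 119 and 106. Those sites had a further excess from 10400 to 10700 bp, with 87, 151 and 213 gaps per successive 0.1 kb. The adjoining 0.1 kb held 19 gaps below and 18 above. MYBR98 lacked this excess, with 5, 5 and 6 gaps in the same range. A lower excess from 8000 to 8600 bp was common to both. MYBR98 had 29 to 52 gaps per 0.1 kb there, and the 12472 strongest SMH1 sites had 45 to 89. From 8600 to 8700 bp they had 10 and 19. The whole SMH1 list had 640 gaps from 8000 to 8100 bp and 180 from 8500 to 8600 bp. The whole SMH1 list had its broadest excess at 1.6 to 2.4 kb, with 9723 gaps (8.70%) against 29 (0.233%) in the shorter MYBR98 list. Among the 12472 strongest SMH1 sites, a list of equal length, this range held 99 gaps (0.798%). When shared sites were removed from MYBR98 before gaps were taken, 0.337% of gaps were 9.4 to 9.7 kb long. The sites left were sparse, with a median gap of 314746 bp. When unshared sites were removed instead, the share was 8.39% and the median gap 31078.5 bp. Repeats under the sites were not analysed here.

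**Figure D3:**
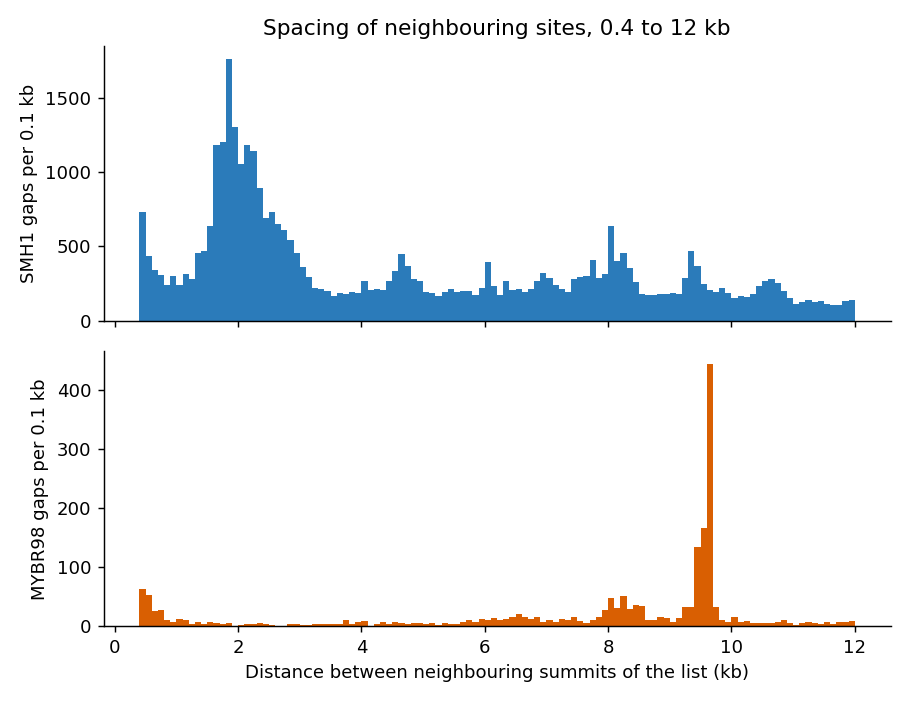
Number of gaps between neighbouring summits of a list (y axis, per 0.1 kb) by their length (x axis, 0.4 to 12 kb) for SMH1 (upper panel) and MYBR98 (lower panel), on separate scales. SMH1 has a broad excess from 1.6 to 2.4 kb (9723 gaps) and MYBR98 a narrow one from 9.4 to 9.7 kb (743 gaps). Both also have a lower excess between 8000 and 8500 bp.

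Both lists lay toward the middle of the chromosomes. Between 30% and 60% of the chromosome span, SMH1 had 43.4% of its sites on chromosomes 1 to 10 and MYBR98 43.1%, the first and second highest of 112 lists. The other lists ran from 20.9% to 38.3%, with a median of 29.6%. Shared sites were the most central, at 48.8% (47.8 to 49.9), followed by SMH1 alone at 42.9% (42.6 to 43.2). Among the 12472 strongest SMH1 sites, those alone were closer to shared sites, at 46.9% (45.7 to 48.1). MYBR98 alone lay near an even spread, at 31.8% (30.4 to 33.2). The 429 unshared MYBR98 sites above the median signal had a share near that of shared ones, at 48% (43.3 to 52.7), whereas the 3719 below it stood at 29.9% (28.4 to 31.4). Shared sites below the median signal stayed central, at 45.2% (43.3 to 47.2).

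**Figure D4:**
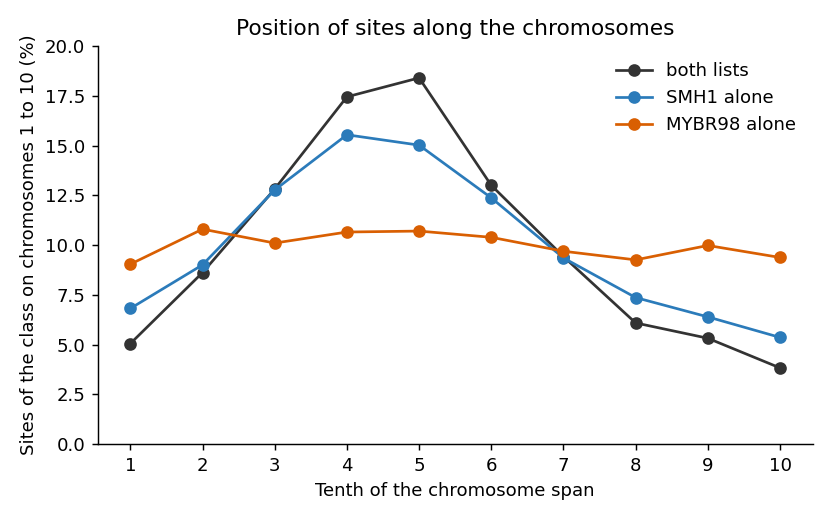
Percentage of the sites of a class (y axis) in each decile of the chromosome span (x axis), summed over chromosomes 1 to 10, for 8192 sites of both lists, 101840 of SMH1 alone and 4148 of MYBR98 alone. Sites of both lists peak at 18.4% in decile 5, SMH1 alone peaks at 15.5% in decile 4, and MYBR98 alone stays between 9.04% and 10.8%.

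The chromosome ends, where telomeres lie, held no more sites of these lists than of most others. In the outermost 1 Mb at both ends lay 70 shared sites (0.854%, 0.677 to 1.08), 885 of SMH1 alone (0.869%, 0.814 to 0.928) and 41 of MYBR98 alone (0.988%, 0.729 to 1.34). The background over the other 110 lists was 1.02%. By this measure SMH1 was 107th and MYBR98 104th of 112 lists, counted from the highest, and the intervals of the 3 classes overlapped. In the outermost 5 Mb they did not overlap. Shared sites were at 2.08% (1.79 to 2.41), SMH1 alone at 2.87% (2.77 to 2.97) and MYBR98 alone at 4.15% (3.58 to 4.80).

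Single ends differed. Over the 20 ends, shared sites numbered from 0 (4 ends) to 15 at the start of chromosome 4, with a median of 2.5. Sites of SMH1 alone numbered from 19 to 120 with a median of 39.5, the 120 at the far end of chromosome 6. Sites of MYBR98 alone numbered at most 6. The outermost SMH1 summit lay a median of 19.95 kb from the end, and within 10 kb at 6 of the 20 ends. For MYBR98 the median was 138.8 kb, and no end had a summit within 10 kb. Such distances depend on the length of a list, and the SMH1 list is the longer by 8.97 times. They were not computed for lists of equal length. The far end of a chromosome was set at the last base of any of the 112 peak lists. How much telomere repeat the assembled ends hold was not analysed here.

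Other TFs were rare at shared sites and common where MYBR98 stood alone. No other TF had a summit within 100 bp of 77.2% (76.3 to 78.1) of shared sites, 64.7% (64.4 to 65.0) of SMH1 sites alone and 14.2% (13.2 to 15.3) of MYBR98 sites alone. The background over the other 110 lists was 17%. Sites with 10 or more other TFs made up 2.99% (2.65 to 3.38) of shared sites, 1.32% (1.25 to 1.39) of SMH1 alone and 45.8% (44.3 to 47.4) of MYBR98 alone, against a background of 12%. That background pools lists that ran from 0.652% (TCPTF40) to 74.8% (WRKY14), with a median of 11.5%. Some whole lists thus exceeded MYBR98 alone. The median number of other TFs was 8 for MYBR98 alone and 0 for both of the other classes. These counts leave the partner list out. With it counted, 59.6% of SMH1 sites and 4.78% of MYBR98 sites had no summit of any other list, places 3 and 83 of 112, against a median of 9.93% and a highest value of 60.8% (TCPTF40) among the other lists.

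The size of the difference depended on strength. Above the median signal of MYBR98, 68.9% (64.4 to 73.1) of unshared and 79% (77.9 to 80.04) of shared sites had no other TF, and both medians were 0. Below it, the values were 7.92% (7.09 to 8.82) and 73.1% (71.3 to 74.8). Unshared sites below the median thus carried most of the difference. Below the median, 10 or more other TFs were found at 49.5% (47.9 to 51.1) of unshared and 7.77% (6.78 to 8.89) of shared sites. Above it, the values were 14.3% (11.3 to 17.9) and 0.948% (0.729 to 1.23). The 740 unshared sites with SMH1 at 101 to 200 bp were unlike the rest of their class, since 64.3% had no other TF, against 3.48% of the other 3446. A −log10 q of 10 or more in all lists also removes sites of the other TFs. No other TF was then found at 92.3% (89.3 to 94.5) of MYBR98 sites alone and 97.4% (96.9 to 97.8) of shared sites. At that q, 2.73% (1.53 to 4.82) of MYBR98 sites alone and 0.0181% of shared sites kept 10 or more TFs.

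**Figure D5:**
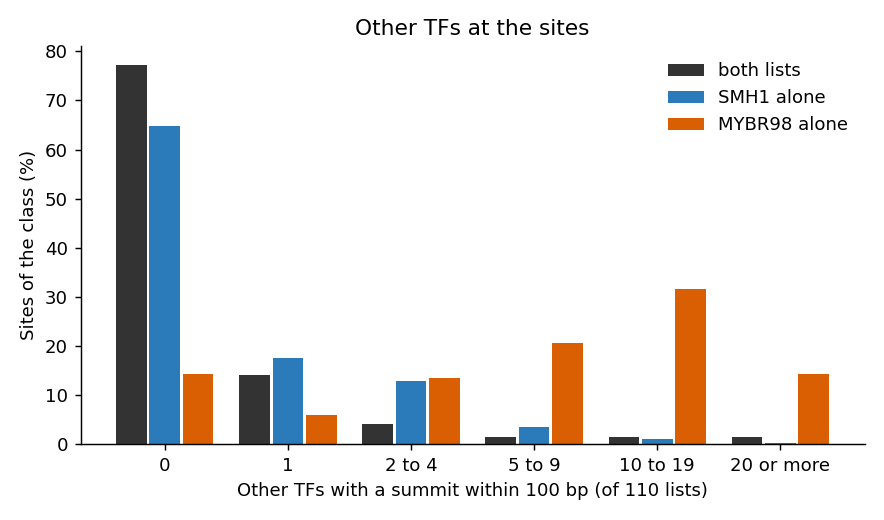
Percentage of the sites of a class (y axis) by the number of other TFs with a summit within 100 bp (x axis, of 110 lists), for 8286 sites of both lists, 102958 of SMH1 alone and 4186 of MYBR98 alone. Sites of both lists and of SMH1 alone are highest at 0 (77.2% and 64.7%), and MYBR98 alone is highest at 10 to 19 TFs (31.6%).

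At shared sites the commonest other TF was BZR1, of the family of brassinosteroid response factors named after BES1 in Arabidopsis, with a summit at 9.16%. MYBR33 followed at 3.39%, C3H11 of the C3H zinc-finger family at 3.01%, MYBR19 at 2.66% and NACTF2 of the NAC family at 2.41%. The median over 110 lists was 0.543%. BZR1 stood at 2.93% of SMH1 sites alone and 6.28% of MYBR98 sites alone, and at 22.4% of the 1000 strongest SMH1 sites. The commonest distance of its summit from the MYBR98 summit at shared sites was 51 bp (124 of 759). These 759 sites correspond to 0.829% of the 91546 sites of BZR1.

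At sites of SMH1 alone the commonest were MYBR13 at 6.39%, the HD-ZIP factor OCL5A at 4.48%, C3H11 at 3.74%, the HD-ZIP factor HB91 at 3.54% and BZIP60 at 3.20%. The MYBR13 and OCL5A lists are long (200114 and 233664 sites), and these sites correspond to 3.29% and 1.98% of them. For the shorter C3H11 list (37343 sites) the value was 10.3%. OCL5A and HB91 each stood at 0.169% of shared sites, below their level at SMH1 alone. The commonest distance to SMH1 was 12 bp for MYBR13 (1320 of 6583) and 63 bp for OCL5A (695 of 4617).

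At sites of MYBR98 alone several families were found together. MYBR33 had a summit at 44.8%, BZIP121 at 37.6%, the MADS-box factor MADS53 at 36.6%, BHLH156 at 34% and BZIP60 at 31.1%. In this class 36 of the 110 lists reached 10% or more, and in the other classes none did. At shared sites BZIP121 stood at 2.23% and MADS53 at 2.11%. The commonest distance between MYBR98 and MYBR33, 27 bp, held 6.66% of 1877 sites, and distances to the other TFs of this class were not computed.

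The other MYB-related lists differed from the pair. SMH1 summits were found at 0.883% of the sites of MYBR111, 1.33% of MYBR81, 1.75% of MRP1, 1.99% of MYBR86, 3.24% of MYBR13, 3.87% of MYBR33 and 4.83% of MYBR19. MRP1 is an activator of genes of the basal endosperm transfer layer. MYBR98 summits were found at 7.13% of MYBR19 sites and 4.97% of MYBR33 sites, and at 2.27% or less of the others. MYBR19 and MYBR33 were also rich in sites with 10 or more other TFs, at 33.7% and 25.9%, beside 17.4% in the whole MYBR98 list.

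The library identifiers of both begin with the digits 19255, whose meaning is not stated, as do those of 13 other lists. Among the 1000 strongest MYBR98 sites, 96.0% had an SMH1 summit, while these 13 lists had a median of 0.1% and at most 3.3%. Over the lists with other or no digits the median was 0.3% and the highest 11.9%, that of C3H11. Among the 1000 strongest SMH1 sites, 68.8% had a MYBR98 summit and the 13 lists stood at 2.2% or less. Common handling of the libraries and binding of both proteins to the same sequences cannot be told apart for this pair with 1 library each.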

How the data were processed

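Sites of SMH1 and MYBR98 were taken from ampDAP-seq peak lists, 1 per TF. Per the study's methods, the authors trimmed reads with Trimmomatic (0.39), aligned them to B73 v4 with Bowtie2 (2.4.1), removed duplicates with Picard and called peaks with GEM against the empty HaloTag vector. The deposited lists give intervals of 201 bp around a summit, the caller's signal with no stated scaling between libraries, and the −log10 of a q-value, at least 3 and at most 999. Read depth is not given.

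Sites were ranked by deposited signal within a list, ties by position. A site was shared when a summit of the other list lay within 100 bp. Chromosome spans ran to the last base of any of the 112 lists. Other TFs were counted over the 110 remaining lists. Background percentages pool all sites of those lists, each counted against the others without SMH1 and MYBR98. Python 3.11.15, pandas 2.3.3, NumPy 2.4.6 and SciPy 1.17.1 were used, and the matching was tested on simulated lists. With 1 list per TF there was no test between groups. TFs and loci were named by rule: the 5 commonest other TFs of each class, the other MYB-related lists, the 3 arrays with most summits, the 5 loci best in both lists and the 3 strongest of each alone. Members, lists and rules were chosen with earlier results of these data known. The planned count of the motif core under the sites was not run, as no B73 v4 genome was used here.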

Additional observations from a re-analysis of the deposited data

How the results depend on the processing

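No paired analysis was possible because each TF has 1 list, and no replicate could be left out. The alternatives planned for the motif core were not run, since no B73 v4 genome was used here. The share of MYBR98 sites with SMH1 (66.4%) was 41.95% with summits within 20 bp, 60.1% within 50 bp, 72.4% within 200 bp, 93.2% at a −log10 q of 10 or more in both lists, 51.1% against the 12472 strongest SMH1 sites and 96.0% for the 1000 strongest sites. The share of SMH1 sites with MYBR98 (7.99%) was 4.66%, 6.64%, 13.3%, 8.93%, 46.1% and 68.8% in that order. The median signal percentile of shared sites exceeded that of unshared ones by 41.2 points in MYBR98, by 25.6 with summits within 20 bp, 42.5 ranked by −log10 q and 12.9 at the stricter q. In SMH1 the difference of 46.4 was 43.8 at the stricter q. Pairs within 10 bp (48.6%) were 35% for the 1000 strongest MYBR98 sites and 44.8% at the stricter q.

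The share in SMH1 arrays of shared minus unshared SMH1 sites (43.95 points) was 45.6 with neighbours within 500 bp, 25.1 within 5 kb, 1.14 for 5 or more summits and −0.00671 with the 12472 strongest SMH1 sites, where it changed sign within its counting error. In that setting, SMH1 sites outside the 12472 strongest no longer counted as neighbours. In the outermost 1 Mb, shared sites minus SMH1 alone (−0.0145 points) became −0.795 in the outermost 5 Mb. Sites with 10 or more other TFs, MYBR98 alone minus shared (42.9 points), gave 18.3 with summits within 50 bp, 2.71 with all lists at the stricter q and 34.3 with the 12472 strongest SMH1 sites. Of the alternatives chosen after seeing the data, MYBR98 sites above the median signal gave 13.3 and sites with no SMH1 summit within 200 bp 49. The cause of these shifts was not tested. Read depth is unknown and limits statements on weak sites.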

Other observations

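Sites outside chromosomes 1 to 10 were a small part of both lists, 1213 of SMH1 (1.08%) on 148 sequences and 132 of MYBR98 (1.06%) on 39. Unplaced sequence thus took a like share of each.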
